A study of Mus musculus with 12 samples.

Results

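The 9 genes described here make, store and release catecholamines in the chromaffin cells of the adrenal medulla. They are *Th*, *Ddc*, *Dbh*, *Pnmt*, *Slc18a1*, *Slc18a2*, *Chga*, *Chgb* and *Phox2a*, chosen by symbol, and they are 9 of the 39017 genes counted. RNA sequencing of whole adrenals was available as 12 libraries from female mice, 6 control (Ctrl) and 6 βCat-GOF. Each library is called a mouse here, but the labels of 3 pairs share a stem (1367-1 and 1367-1-2, 1367-5 and 1367-5-2, 1369-2 and 1369-2ear) and do not say whether such a pair is 2 mice or 2 samples of 1. If they are samples of 1 mouse, n is smaller than 6 and the p-values given are too small. All mice were 10 to 11 weeks old and on a mixed sv129-C57Bl/6 background. Ctrl mice had the genotype ASCre/+. βCat-GOF mice had ASCre/+ together with Ctnnb1fl(ex3)/+, so Cre recombinase removes exon 3 of 1 *Ctnnb1* allele and stabilizes β-catenin. By these genotypes both groups carried Cre, but the titles of the Ctrl samples read Wt_Ctr and the study also calls its controls wild type. Cre is expressed from the aldosterone synthase (*Cyp11b2*) locus of zona glomerulosa (zG) cells in the cortex. The 9 genes are medullary, so the allele was directed to other cells than those that express them. Because whole glands were sequenced, fewer chromaffin cells, less RNA per chromaffin cell and a larger share of cortical RNA cannot be told apart. The study reports an expanded zG in female βCat-GOF adrenals. The labels of all Ctrl mice begin with 1367, those of 5 βCat-GOF mice with 1369 and that of the last with 1387, so whatever this number marks cannot be told apart from genotype.

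Catecholamines are made from tyrosine in a chain of enzymes. Tyrosine hydroxylase (*Th*) forms DOPA in the rate-limiting step, aromatic L-amino acid decarboxylase (*Ddc*) forms dopamine, dopamine β-hydroxylase (*Dbh*) forms noradrenaline inside the granule, and phenylethanolamine N-methyltransferase (*Pnmt*), which is induced by glucocorticoid from the cortex, forms adrenaline. The vesicular monoamine transporters VMAT1 (*Slc18a1*) and VMAT2 (*Slc18a2*) load the granule, chromogranins A and B (*Chga*, *Chgb*) are its main soluble proteins, and *Phox2a* is a homeodomain transcription factor of the sympathoadrenal lineage.

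Promoter windows are shown because cyclic AMP signalling, which follows nerve stimulation of the medulla, acts through a well-known element in several of these genes. Windows of 300 bases, from 250 before to 50 after an annotated start, were taken from RefSeq on GRCm38.p6, the same assembly as mm10. They covered 7 of the 9 genes in 8 windows, with 2 for *Ddc*. *Pnmt* and *Slc18a1* had no entry. Sequences run 5′ to 3′ on the strand of the gene, and capitals mark the cyclic AMP response element TGACGTCA or its short form TGACG. The first 3 windows hold the full element, that of *Chga* the short form alone and that of *Phox2a* neither.
Th (chr7:142899946-142900245, minus strand): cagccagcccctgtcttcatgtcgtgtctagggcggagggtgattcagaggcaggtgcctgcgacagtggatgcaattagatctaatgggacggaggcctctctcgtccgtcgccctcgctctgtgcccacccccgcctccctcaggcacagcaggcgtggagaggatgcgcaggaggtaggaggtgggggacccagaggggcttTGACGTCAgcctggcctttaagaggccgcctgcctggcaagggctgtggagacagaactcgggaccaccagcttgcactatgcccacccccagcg
Slc18a2 (chr19:59260628-59260927, plus strand): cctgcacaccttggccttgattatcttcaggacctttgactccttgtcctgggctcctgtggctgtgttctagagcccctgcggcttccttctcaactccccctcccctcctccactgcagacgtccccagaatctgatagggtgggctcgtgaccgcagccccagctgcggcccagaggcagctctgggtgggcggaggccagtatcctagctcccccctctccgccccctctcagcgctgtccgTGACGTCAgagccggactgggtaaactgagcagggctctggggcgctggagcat
Chgb (chr2:132781392-132781691, plus strand): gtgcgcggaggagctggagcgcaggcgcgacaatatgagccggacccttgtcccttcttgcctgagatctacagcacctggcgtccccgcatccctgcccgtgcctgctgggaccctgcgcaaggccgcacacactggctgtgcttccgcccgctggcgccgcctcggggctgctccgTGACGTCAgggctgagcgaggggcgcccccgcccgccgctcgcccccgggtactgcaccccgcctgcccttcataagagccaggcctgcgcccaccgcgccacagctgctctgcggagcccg
Chga (chr12:102554691-102554990, plus strand): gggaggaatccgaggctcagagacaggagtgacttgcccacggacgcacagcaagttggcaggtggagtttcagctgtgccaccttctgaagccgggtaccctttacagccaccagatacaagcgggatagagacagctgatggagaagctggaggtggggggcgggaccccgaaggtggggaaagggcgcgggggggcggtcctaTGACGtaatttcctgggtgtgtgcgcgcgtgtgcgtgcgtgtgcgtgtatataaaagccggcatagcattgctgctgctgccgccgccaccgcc
Phox2a (chr7:101818063-101818362, plus strand): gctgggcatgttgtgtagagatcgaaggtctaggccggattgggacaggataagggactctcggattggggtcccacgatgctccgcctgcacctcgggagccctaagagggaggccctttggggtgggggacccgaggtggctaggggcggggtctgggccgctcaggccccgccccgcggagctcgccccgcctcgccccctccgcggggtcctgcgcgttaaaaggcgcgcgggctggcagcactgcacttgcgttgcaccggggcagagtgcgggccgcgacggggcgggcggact

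The full element began 45 bases before the start of *Th*, 72 before that of *Chgb* and 4 before that of *Slc18a2*. It was found in the windows of 3 of the 7 genes, and in 1.79% of all 32851 windows in the table. The short form TGACG, which lies inside every full element, was found in 5 of the 7 genes and in 20.8% of all windows. Searched on both strands, the AP-1 site TGANTCA was found in 2 of the 7 genes (7.81% of all windows), the GC box GGGCGG in 5 (35.7%), the Egr1 site GCGNGGGCG in 2 (5.55%), the E-box CANNTG in 6 (72.3%) and the TATA box TATAAA in 2 (13.6%). The homeodomain site ATTA was found in 5 of the 7 genes (58.0% of all windows), and a longer homeodomain core, in which this site occurs on both strands, in 0 (0.265%). These matches describe the letters of the windows and are not measured binding sites.

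All 9 genes were detected in every mouse, and all passed the filter on low counts. The smallest count of any of them was 156 reads (*Phox2a*) and the largest 132125 (*Chgb*). Totals on genes were between 14090378 and 25625494 reads in Ctrl and between 13484675 and 24951480 in βCat-GOF libraries, of which the 9 genes together took 0.392% to 1.25% and 0.481% to 0.906%. Between genes, levels were compared as CPM (counts scaled to a common library total) per kilobase of exon. The order by median was *Chgb* (1245 CPM per kb in Ctrl and 1058 in βCat-GOF), *Chga* (1056 and 859.6), *Pnmt* (445 and 405), *Th* (238 and 231), *Dbh* (205 and 146), *Ddc* (17.0 and 12.5), *Slc18a1* (15.7 and 11.7), *Phox2a* (12.7 and 8.49) and *Slc18a2* (5.81 and 4.95). The order was the same in both groups. Each neighbouring pair kept it in 6 of 6 mice per group, except *Ddc* over *Slc18a1*, which held in 5 of 6 mice of each group. *Pnmt*, the enzyme that defines adrenaline-producing cells, therefore exceeded *Th* and *Dbh* per length in every mouse. By the same measure *Slc18a1* exceeded *Slc18a2* in every mouse.

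The comparison of βCat-GOF with Ctrl asked whether the catecholamine genes differ when β-catenin is stabilized in the neighbouring cortex. None of the 9 genes passed the test across all genes. With edgeR's quasi-likelihood test and Benjamini-Hochberg adjustment, 0 of 9 had an adjusted p under 0.05, against 3.68% of the 14953 genes tested, and DESeq2 called 0 of 9 as well, against 7.3% of its 16901 genes. At an unadjusted p under 0.05, edgeR had 3 of 9 lower in βCat-GOF (*Ddc*, *Slc18a1* and *Phox2a*), and 10.7% of all genes tested were lower by that rule. None of the 9 was higher at an unadjusted p under 0.05, against 9.73% of all genes (20.4% in either direction), and with the added limits of a fold above 1.4 and a base mean above 100, edgeR called 0 of 9, against 2.35%. Means were lower in βCat-GOF for 8 of 9 genes, against 50% of all genes tested, and *Th* was the exception. The median log2 fold change (βCat-GOF minus Ctrl) was -0.35 over the 9 genes and 0.00011 over all genes tested. No gene of the 9 had groups that did not overlap, as 2.94% of all genes tested did. Levels in the rest of the text are normalized counts, the counts divided by the size factor of each library, and groups are given as mean ± SD with 6 mice each.

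The enzymes are taken in the order of the pathway. *Th* (chromosome 7, 142892752 to 142931128, minus strand) ran from 5975 through a median of 11280 to 16600 normalized counts in Ctrl, and from 9357 through 10990 to 17110 in βCat-GOF. The highest and the lowest 3 values included mice of both groups, and the ranges overlapped almost fully. *Th* averaged 11600 ± 3854 in Ctrl and 11870 ± 2737 in βCat-GOF, a log2 fold change of 0.02 with a 95% interval from -0.44 to 0.49 (edgeR adjusted p = 0.967). *Ddc* (chromosome 11, 11814101 to 11898144, minus strand) ran from 902 through 1520 to 2462 in Ctrl and from 714 through 1133 to 1441 in βCat-GOF. Of the Ctrl mice, 3 lay above every βCat-GOF mouse, while the lowest, 1367-1-2, lay below 5 of the 6. The log2 fold change of *Ddc* was -0.56 ± 0.22 (SE), with an unadjusted p of 0.0226 and an edgeR adjusted p of 0.171.

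*Dbh* (chromosome 2, 27165233 to 27183200, plus strand) ran from 5922 through 11070 to 13320 normalized counts in Ctrl and from 7059 through 7876 to 12260 in βCat-GOF. In βCat-GOF, 5 of the 6 mice lay between 7059 and 7950, and mouse 1369-8 stood apart at 12260. The group means were 10560 ± 2675 and 8356 ± 1952, a log2 fold change of -0.35 ± 0.19 (SE; edgeR adjusted p = 0.322). *Pnmt* (chromosome 11, 98386450 to 98388181, plus strand) ran from 4836 through 10280 to 16780 in Ctrl and from 5566 through 9406 to 13300 in βCat-GOF. Its values fell into no order by group, with 3 βCat-GOF mice between 11130 and 13300 and the other 3 between 5566 and 7685. The log2 fold change of *Pnmt* was -0.14, with a 95% interval from -0.73 to 0.45 (edgeR adjusted p = 0.821).

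Of the transporters, *Slc18a1* (chromosome 8, 69037711 to 69089235, minus strand) ran from 930 through 1693 to 2464 normalized counts in Ctrl and from 969 through 1277 to 1548 in βCat-GOF. Every Ctrl mouse other than 1367-1-2 lay above every βCat-GOF mouse, and 1367-1-2 lay below all of them. The means were 1797 ± 567 and 1252 ± 237, a log2 fold change of -0.53 ± 0.21 (SE; unadjusted p = 0.0223, edgeR adjusted p = 0.171). Without mouse 1367-1-2, the log2 fold change was -0.65 and *Slc18a1* passed the test (edgeR adjusted p = 0.0419), the only one of the 9 genes to do so when any single mouse was left out. *Slc18a2* (chromosome 19, 59260896 to 59296012, plus strand) ran from 286 through 611 to 1064 in Ctrl and from 428 through 520 to 656 in βCat-GOF. The Ctrl mice surrounded the narrow βCat-GOF range on both sides. The log2 fold change of *Slc18a2* was -0.35 ± 0.24 (SE; edgeR adjusted p = 0.451). An antisense gene, *Gm29261*, covers 2.12% of its exon bases, and reads of the 2 strands are not known to be separated.

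The granins were the most abundant of the 9 genes. *Chga* (chromosome 12, 102554969 to 102565028, plus strand) ran from 29640 through 58490 to 89140 normalized counts in Ctrl and from 32440 through 47170 to 61780 in βCat-GOF. The highest mouse had 3.01 times the lowest in Ctrl and 1.90 times in βCat-GOF, and the ranges overlapped. The log2 fold change of *Chga* was -0.47 ± 0.24 (SE; edgeR adjusted p = 0.294; DESeq2 adjusted p = 0.232). *Chgb* (chromosome 2, 132781278 to 132795079, plus strand) ran from 31090 through 68550 to 104400 in Ctrl and from 39530 through 57660 to 85230 in βCat-GOF. The 2 highest mice were again 1367-5 and 1367-5-2, and the lowest was again 1367-1-2. The log2 fold change of *Chgb* was -0.35 ± 0.27 (SE; edgeR adjusted p = 0.496).

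*Phox2a* (chromosome 7, 101818313 to 101822726, plus strand) ran from 255 through 521 to 880 normalized counts in Ctrl and from 179 through 347 to 506 in βCat-GOF. Of the Ctrl mice, 4 lay above every βCat-GOF mouse. It had the largest difference of the 9 genes, with means of 570 ± 240 and 341 ± 122 and a log2 fold change of -0.74 ± 0.30 (SE; unadjusted p = 0.0273, edgeR adjusted p = 0.187). The *Inppl1* gene on the opposite strand covers 4.67% of its exon bases. *Ctnnb1* itself, counted over the whole gene, had 21620 ± 858 normalized counts in Ctrl and 21400 ± 1151 in βCat-GOF (log2 fold change -0.02, edgeR adjusted p = 0.907). A count over the whole gene does not show the loss of 1 exon of 1 allele.

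**Figure D1:**
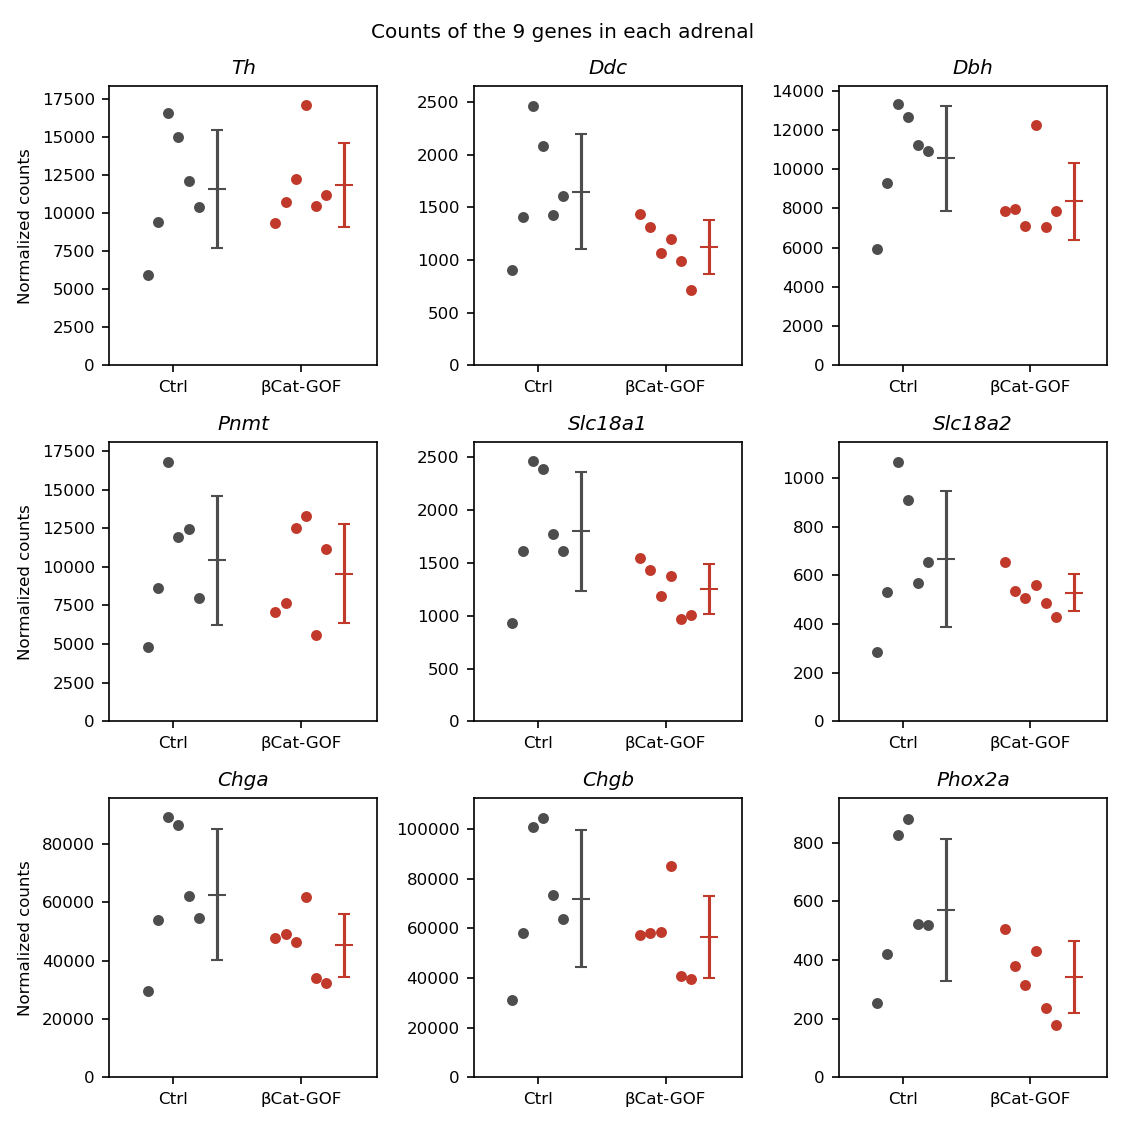
Normalized counts of the 9 genes (vertical axes, from 0) in the 6 Ctrl (grey) and 6 βCat-GOF (red) adrenals, 1 point per mouse, with the mean and SD beside the points. The ranges of the 2 groups overlap for all 9 genes, and for *Dbh* 5 of 6 βCat-GOF mice lie between 7059 and 7950.

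**Figure D2:**
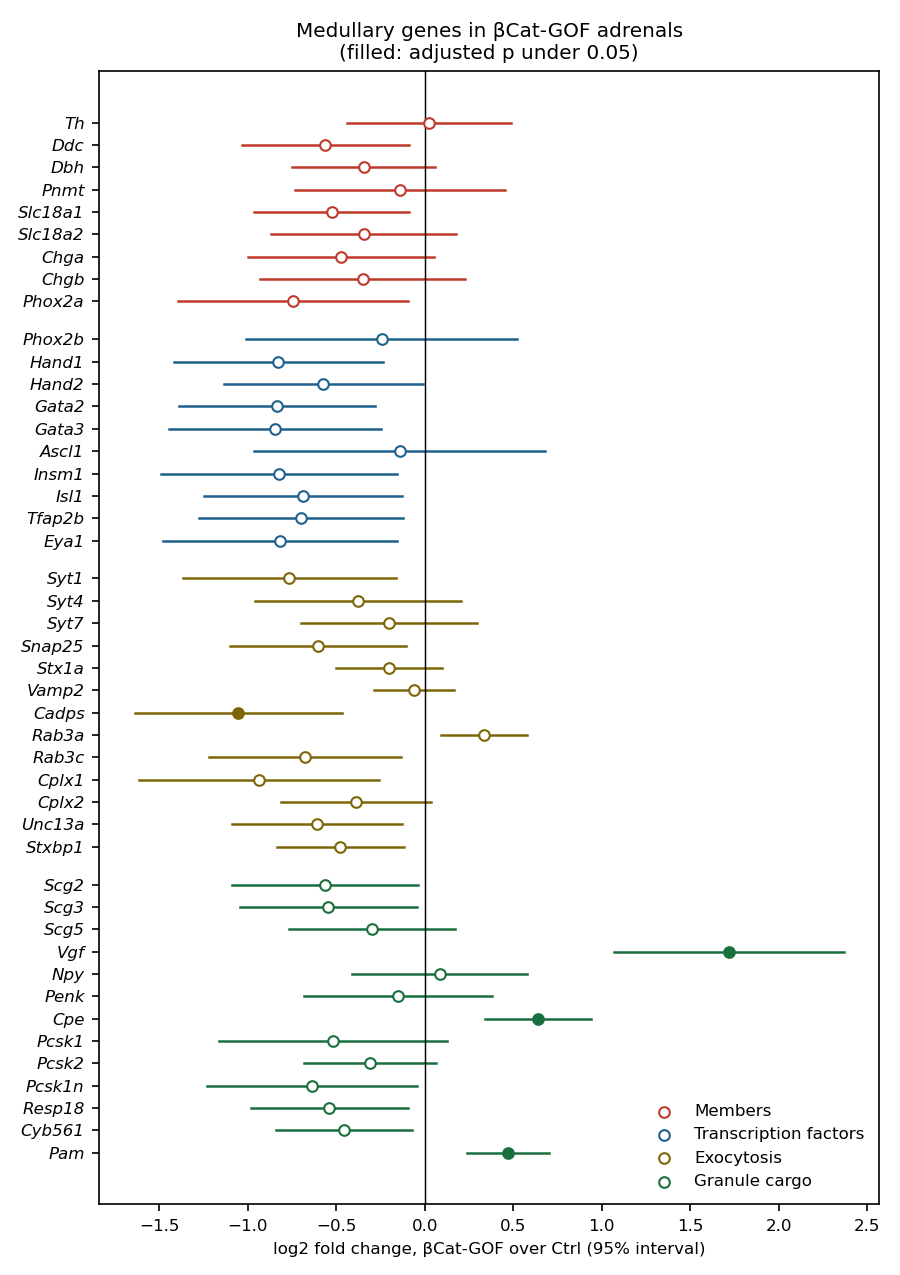
Log2 fold change (βCat-GOF minus Ctrl, edgeR) with its 95% interval for each of the 9 genes (members, at the top). Below them are the genes of the transcription factor, exocytosis and granule cargo lists. Filled points have an adjusted p under 0.05. Among the 9, *Th* lies at 0.02 and the other 8 genes lie below 0, down to -0.74 for *Phox2a*, and none of the 9 passed an adjusted p of 0.05.

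Levels of the 9 genes moved up and down together from mouse to mouse within a group. The mean log2 normalized count over the 9 genes was highest in the Ctrl mouse 1367-5-2 (13.01) and lowest in the Ctrl mouse 1367-1-2 (11.44), and the βCat-GOF mice lay between them, from 11.74 in 1387-8 to 12.46 in 1369-8. Mouse 1367-1-2 was the lowest Ctrl mouse for all 9 genes. Its summed level of the 9 genes was 3972 CPM, against 7170 to 12150 CPM in the other 5 Ctrl mice, while its summed level of 10 cortical steroidogenic genes was 81260 CPM, within the Ctrl range of 67120 to 84060. Its label shares a stem with 1367-1, and it lay 0.77 lower on the log2 scale than that mouse. The other pairs with a shared stem lay closer, 1367-5-2 being 0.13 above 1367-5 and 1369-2ear 0.06 above 1369-2. The counts of these 3 pairs differed by more than counting noise (chi-square per degree of freedom of 41.9 to 45.9 over genes, against 16.8 to 145 in other pairs within a group), so no pair was 1 library deposited 2 times. This does not show whether they came from separate mice. Without 1 library of each pair, edgeR called *Slc18a1* lower (adjusted p = 0.0421), and 6 of the 9 genes were lower at an unadjusted p under 0.05. Without 1367-1-2, edgeR had 7 of the 9 genes lower at an unadjusted p under 0.05, and without either of the Ctrl mice 1367-5-2 and 1367-5 it had 0. The shares of all genes lower in these fits are not given here, so the counts are not a result about the 9 genes.

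Within a group, the SD of the log2 level ran from 0.37 for *Dbh* to 0.61 for *Phox2a*. The spread was wider in Ctrl than in βCat-GOF for all 9 genes, from 0.43 for *Dbh* to 0.67 for *Slc18a2* in Ctrl and from 0.21 for *Slc18a2* to 0.56 for *Phox2a* in βCat-GOF. In Ctrl the lowest mouse was 1367-1-2 for all 9 genes, and the highest was 1367-5-2 or 1367-5. The 9 genes are therefore not independent here, and the share of all genes with a wider spread in Ctrl is not given. With the group means removed, each gene followed the mean of the other 8 over the 12 mice, with a Pearson r of 0.989 for *Chga*, 0.982 for *Chgb*, 0.95 for *Slc18a1*, 0.922 for *Slc18a2*, 0.899 for *Phox2a*, 0.893 for *Dbh*, 0.885 for *Th*, 0.877 for *Ddc* and 0.718 for *Pnmt*. *Pnmt* was thus the gene that followed the others least. These values describe 12 libraries in which all genes share the same piece of tissue. Of 11422 other genes with a mean above 100, those most like the mean of the 9 were *Syp* (r = 0.990), *Ptprn* (0.988), *Scg3* (0.984), *Scg2* (0.983), *E130309D14Rik* (0.982), *Stmn3* (0.979), *Scg5* (0.978), *Resp18* (0.977), *Svop* (0.976) and *Nt5dc2* (0.973). In all, 115 genes had an r above 0.9 and 23 an r above 0.95.

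**Figure D3:**
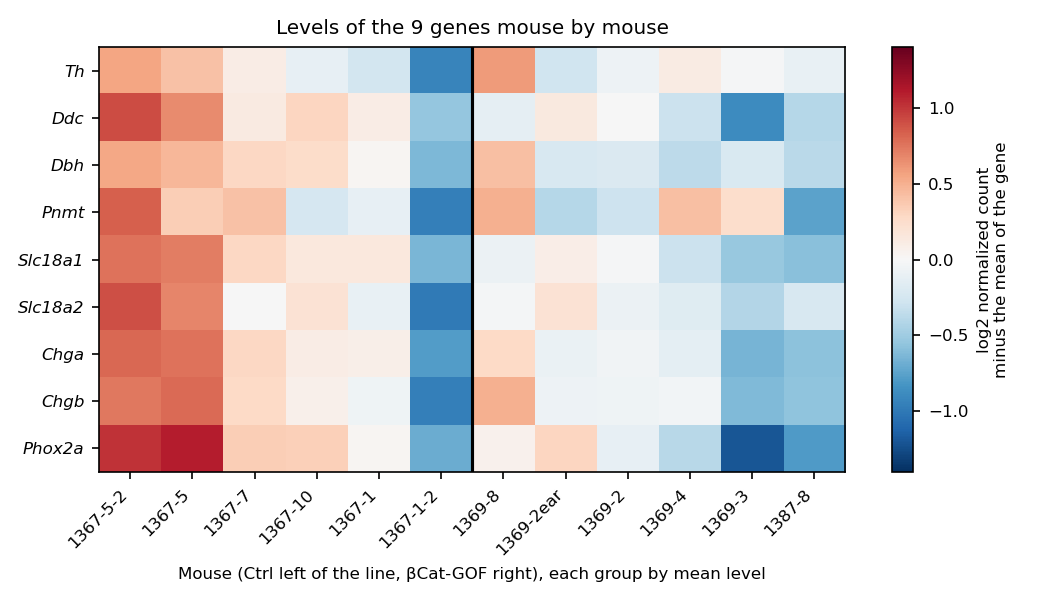
Log2 normalized count of each of the 9 genes (rows) in each mouse (columns) minus the mean of that gene over the 12 mice, with Ctrl left of the line and βCat-GOF right, each ordered by mean level. The Ctrl mice 1367-5-2 and 1367-5 are above the mean for all 9 genes and 1367-1-2 is below it for all 9, while the βCat-GOF mouse 1369-3 is below it for *Phox2a* and above it for *Pnmt*.

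Ratios between 2 of the genes in the same mouse do not depend on the scaling of the library. All 36 pairs were compared with an exact permutation test over the 924 splits of 12 mice into 6 and 6 (two-sided, smallest possible p = 0.002165), with Benjamini-Hochberg adjustment over the 36. No ratio had an adjusted p under 0.05 (smallest 0.0519), and 11 of 36 had an unadjusted p under 0.05. Of these 11, 6 were among the 8 ratios that contain *Th*, and *Th* was higher relative to the other gene in βCat-GOF in 8 of 8. The 8 of 8 restates that *Th* had the highest log2 fold change of the 9 genes (0.02 by edgeR) and is no further result. For comparison, the ratio of *Th* to each of 11430 genes with a mean above 100 had an exact p under 0.05 in 5.77% of genes, and in 4.16% with *Th* relatively higher in βCat-GOF. The groups did not overlap for 0.385% of these genes, and they overlapped for all 8 ratios of *Th* within the 9. Few genes follow the 9 closely from mouse to mouse (115 of 11422 had an r above 0.9 with their mean). Ratios of *Th* to the rest carry its spread between mice, so these shares are not a like measure for ratios within the 9. Ratios that share a gene are not independent of each other.

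The first step of the pathway was *Ddc* to *Th*. The ratio of their counts was between 0.118 and 0.154 in Ctrl (median 0.149) and between 0.0638 and 0.154 in βCat-GOF (median 0.0907). Of the βCat-GOF mice, 4 lay below every Ctrl mouse, while 1369-2ear, at 0.154, lay at the top of the Ctrl range. The difference was -0.60 ± 0.20 on the log2 scale (SE; exact permutation p = 0.0260, adjusted p = 0.0935). Without 1369-2ear it was -0.74 (exact permutation test, adjusted p = 0.0195). That fit was 1 of 12 that left out 1 mouse and was named after the values were seen. Removing the βCat-GOF mouse nearest to Ctrl parts the groups, so its p does not test the difference. The ratio of *Dbh* to *Ddc* ran from 5.41 through 6.57 to 7.84 in Ctrl and from 5.45 through 6.90 to 11.04 in βCat-GOF, where 1369-8 and 1369-3 lay above all others (difference 0.20 ± 0.18; exact permutation p = 0.305). The ratio of *Pnmt* to *Dbh*, the last step, ran from 0.728 through 0.935 to 1.26 in Ctrl and from 0.789 through 1.03 to 1.76 in βCat-GOF. The 2 highest values, 1.76 in 1369-4 and 1.41 in 1369-3, were both in βCat-GOF, and the other 4 βCat-GOF mice lay within the Ctrl range (difference 0.23 ± 0.21; exact permutation p = 0.320).

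Of the 2 pairs from 1 family, *Slc18a1* to *Slc18a2* ran from 2.31 through 2.83 to 3.25 in Ctrl and from 1.99 through 2.36 to 2.68 in βCat-GOF (difference -0.24 ± 0.10; exact permutation p = 0.0498, adjusted p = 0.163). One βCat-GOF mouse, 1387-8, lay below the Ctrl range. *Chga* to *Chgb* ran from 0.827 through 0.873 to 0.953 in Ctrl and from 0.725 through 0.829 to 0.850 in βCat-GOF. This ratio varied least, with a within-group SD of 0.083 on the log2 scale, and it differed by -0.13 ± 0.05 (exact permutation p = 0.0195, adjusted p = 0.0877). The ratio of *Pnmt* to *Phox2a* varied most (within-group SD 0.58), running from 13.5 to 23.7 in Ctrl and from 14.0 to 61.9 in βCat-GOF.

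The ratios with the lowest p are given next and were chosen after their values were seen. *Th* to *Dbh* ran from 0.955 through 1.05 to 1.25 in Ctrl and from 1.19 through 1.41 to 1.72 in βCat-GOF (difference 0.40 ± 0.09; exact permutation p = 0.00433, adjusted p = 0.0519). *Th* to *Chga* ran from 0.174 through 0.189 to 0.202 in Ctrl and from 0.195 through 0.271 to 0.345 in βCat-GOF (difference 0.49 ± 0.13; exact permutation p = 0.00433, adjusted p = 0.0519). In both ratios 5 of 6 βCat-GOF mice lay above every Ctrl mouse, and the sixth was 1369-2ear. *Slc18a2* to *Phox2a* ran from 1.03 through 1.19 to 1.29 in Ctrl and from 1.29 through 1.51 to 2.39 in βCat-GOF, and it was the only ratio of the 36 whose groups did not overlap (difference 0.48 ± 0.16; exact permutation p = 0.002165, adjusted p = 0.0519). The groups failed to overlap for 0.752% of the ratios of *Slc18a2*, and for 1.02% of those of *Phox2a*, to other genes with a mean above 100. As for *Th*, few of those genes follow the 9 closely, so these shares are not a like measure. Leaving out 1369-2ear gave 9 ratios with an adjusted p under 0.05 (exact permutation test), 6 of which contain *Th*. This was the βCat-GOF mouse nearest to Ctrl in *Th* to *Dbh* and *Th* to *Chga*, so its removal parts the groups. The fit was named after the values were seen, and its share over other ratios is not given here. Its 9 is therefore not a result about the 9 genes. Leaving out 1 library of each pair with a shared stem, 1369-2ear among them, gave 0. That fit has fewer mice and so fewer splits, and the smallest possible p of its exact permutation test is above 0.002165. Its 0 therefore does not show that the differences are absent.

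**Figure D4:**
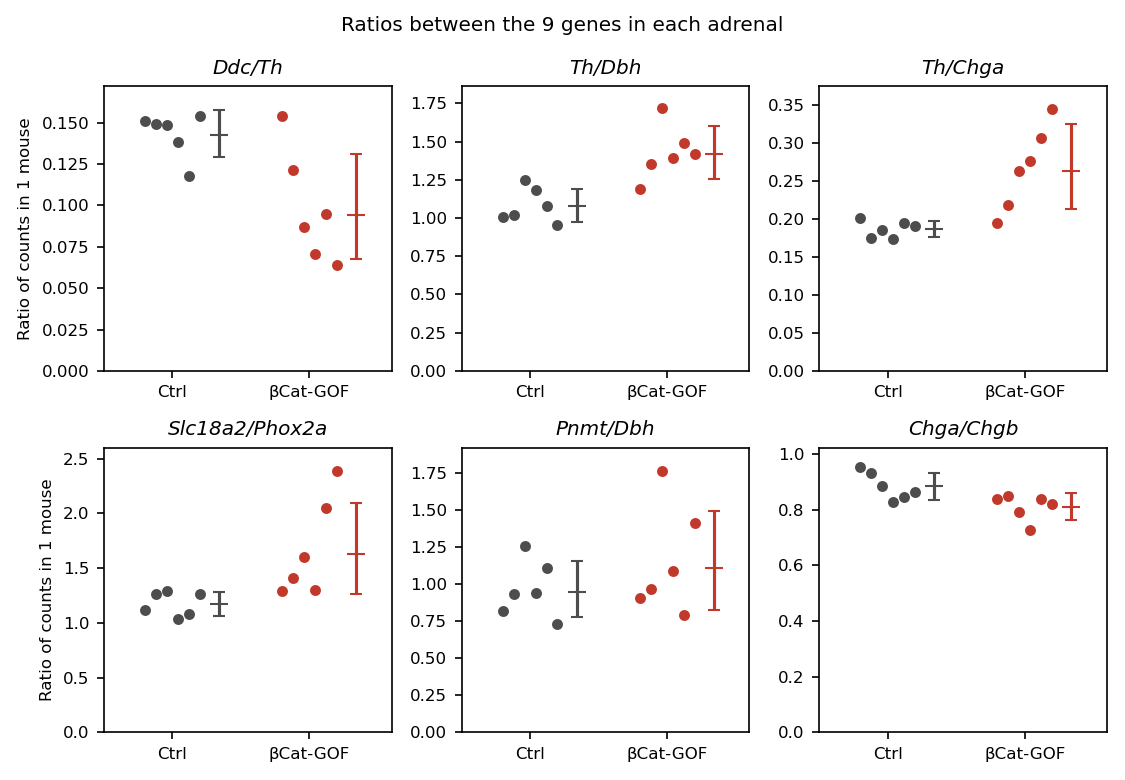
Ratio of the counts of 2 genes in each mouse (vertical axes, from 0) for 6 pairs, in Ctrl (grey) and βCat-GOF (red), with the geometric mean and the SD of the log2 ratio beside the points. For *Th* to *Dbh* and *Th* to *Chga* 5 of 6 βCat-GOF mice lie above every Ctrl mouse, and for *Ddc* to *Th* 4 of 6 lie below.

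**Figure D5:**
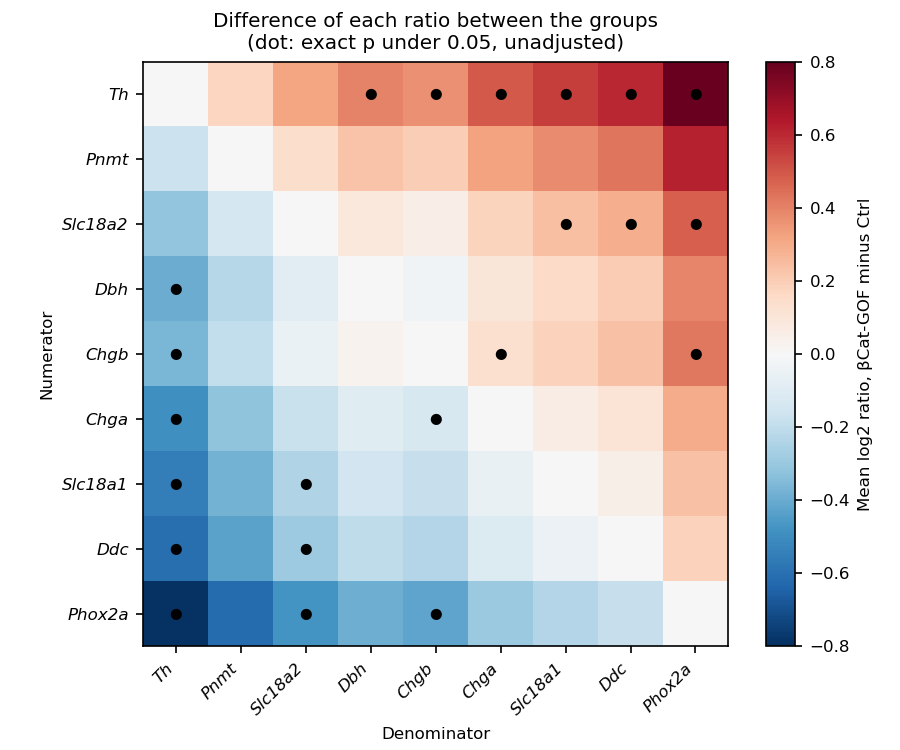
Difference between the groups (βCat-GOF minus Ctrl) in the mean log2 ratio of the row gene to the column gene, for all 36 pairs. *Th* is higher relative to each of the other 8 genes, by up to 0.79 against *Phox2a*, and no pair had an adjusted p under 0.05.

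Other genes of the pathway were taken from lists by role, and a list is described by its counts beside those of all genes tested, of which 2.16% were called higher and 1.52% lower by edgeR (adjusted p under 0.05). At an unadjusted p under 0.05, edgeR had 9.73% of all genes higher and 10.7% lower. DESeq2 called 3.32% of its genes lower and 7.3% in either direction (adjusted p under 0.05). The genes of uptake and breakdown are given singly, without list counts. The enzymes that make tetrahydrobiopterin, the cofactor of tyrosine hydroxylase, differed little. Of 6 tested, 0 were called by edgeR or DESeq2 and 0 had an unadjusted p under 0.05, with a median log2 fold change of -0.05. *Gch1*, its rate-limiting enzyme, had 2401 ± 109 normalized counts in Ctrl and 2445 ± 463 in βCat-GOF. *Qdpr*, which recycles the cofactor, had 2193 ± 164 and 2126 ± 243.

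Of the genes of catecholamine uptake and breakdown, *Maoa*, which deaminates catecholamines, had 1923 ± 182 normalized counts in Ctrl and 1961 ± 320 in βCat-GOF, and *Slc6a2*, the noradrenaline transporter, had 560 ± 222 and 352 ± 187 (log2 fold change -0.67, edgeR adjusted p = 0.292). *Slc22a3* was too low to be tested.

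Means of the other chromaffin transcription factors were lower in βCat-GOF for 10 of 10, with a median log2 fold change of -0.76. By edgeR 0 of 10 were called and 8 of 10 were lower at an unadjusted p under 0.05, against 10.7% of all genes tested, and DESeq2 called 3 lower (*Hand1*, *Gata2* and *Gata3*, against 3.32% of its genes). *Gata2*, the most abundant, had 1364 ± 433 normalized counts in Ctrl and 765 ± 290 in βCat-GOF (log2 fold change -0.83 ± 0.26, edgeR adjusted p = 0.0930). *Gata3* had 609 ± 216 and 340 ± 115 (log2 fold change -0.85 ± 0.28, edgeR adjusted p = 0.114), and *Hand2* had 1233 ± 389 and 831 ± 303 (-0.57 ± 0.26, edgeR adjusted p = 0.235). Without mouse 1367-1-2, edgeR called *Gata2*, *Gata3* and *Eya1* lower.

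In the list of granule cargo and its processing enzymes, 3 of 13 genes were called higher and 0 lower. At an unadjusted p under 0.05, 5 were lower, against 10.7% of all genes tested. *Vgf*, a granin-like neuropeptide precursor, ran from 25.3 through 60.3 to 89.2 normalized counts in Ctrl and from 85.0 through 198 to 282 in βCat-GOF. Its groups overlapped by 1 mouse on each side. *Vgf* rose by 1.72 ± 0.30 on the log2 scale (SE; edgeR adjusted p = 0.00693) and was called in 12 of 12 fits that left out 1 mouse. *Cpe*, which trims prohormones, rose by 0.64 ± 0.14 (edgeR adjusted p = 0.0238), from 22770 ± 3439 to 35530 ± 6023, with no overlap, and was called in 9 of 12 such fits. *Pam*, which amidates peptides, rose by 0.47 ± 0.11 (edgeR adjusted p = 0.0288), from 9424 ± 688 to 13110 ± 1841, with no overlap, and was called in 7 of 12. Of this list, only *Scg3*, *Scg2*, *Scg5* and *Resp18* were among the 10 genes most like the mean of the 9. Which cells gave the counts of *Vgf*, *Cpe* and *Pam* was not tested. *Scg2*, secretogranin II, had 44170 ± 15810 in Ctrl and 29980 ± 6592 in βCat-GOF (log2 fold change -0.57, edgeR adjusted p = 0.212), and *Npy* had 2976 ± 945 and 3169 ± 884 (0.08, edgeR adjusted p = 0.878).

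In the list of calcium-triggered exocytosis, 1 of 13 genes was called lower and 0 higher (median log2 fold change -0.48). At an unadjusted p under 0.05, 7 were lower, against 10.7% of all genes tested. *Cadps*, which primes dense-core granules for release, ran from 184 through 544 to 711 normalized counts in Ctrl and from 150 through 288 to 301 in βCat-GOF. All Ctrl mice other than 1 lay above all βCat-GOF mice. *Cadps* fell by 1.05 on the log2 scale (edgeR adjusted p = 0.0491), but it was called in 2 of 12 fits that left out 1 mouse, where its adjusted p reached 0.110. *Vamp2* had 2620 ± 241 and 2522 ± 354 (log2 fold change -0.06, edgeR adjusted p = 0.788), and *Rab3a* had 945 ± 87.2 and 1201 ± 221 (0.33, edgeR adjusted p = 0.125). Without mouse 1367-1-2, edgeR called 5 of the 13 lower (among them *Syt1*, *Snap25*, *Cadps* and *Rab3c*).

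Receptors through which splanchnic nerves and neurotrophic factors act on chromaffin cells had lower means in βCat-GOF for 7 of 8 tested genes, with a median log2 fold change of -0.61. By edgeR 0 of 8 were called and 5 were lower at an unadjusted p under 0.05, against 10.7% of all genes tested. DESeq2 called 1 lower (*Chrna3*), against 3.32% of its genes. *Chrna3*, a subunit of the ganglionic nicotinic receptor, had 750 ± 272 normalized counts in Ctrl and 414 ± 176 in βCat-GOF (log2 fold change -0.86 ± 0.30, edgeR adjusted p = 0.134). *Adcyap1r1*, the receptor of the neuropeptide PACAP, had 1887 ± 673 and 1201 ± 368 (-0.66 ± 0.26, edgeR adjusted p = 0.179). Of 11 tested genes that feed *Pnmt* (glucocorticoid synthesis, its receptor and response genes, and known *Pnmt* activators), edgeR called 0, with 2 higher and 1 lower at an unadjusted p under 0.05 and a median of -0.02, and DESeq2 called 1 higher (*Fkbp5*). *Star*, which delivers cholesterol for steroid synthesis, had 294400 ± 34970 in Ctrl and 416000 ± 117000 in βCat-GOF (0.49 ± 0.20, edgeR adjusted p = 0.190), and *Cyp11b1*, which makes corticosterone, had 257100 ± 23810 and 228000 ± 79600 (-0.18, edgeR adjusted p = 0.669).

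Markers of other cells of the gland were summed per library, in CPM. The 11 neuronal genes ran from 79.6 to 235 in Ctrl and from 89.2 to 152 in βCat-GOF, with 0 of 10 tested called by edgeR or DESeq2 and 1 lower at an unadjusted p under 0.05. Means were lower in βCat-GOF for 8 of these 10, against 50% of all genes tested, with a median log2 fold change of -0.43. The 9 Schwann and sustentacular cell genes ran from 17.6 to 44.5 and from 16.8 to 33.3, with 0 of 8 tested called by either tool and 0 at an unadjusted p under 0.05. Of these 8, 6 had lower means, with a median log2 fold change of -0.16. Defining markers of the 2 lists were above 0, with means of 85.2 normalized counts for *Tubb3* and 29.4 for *Sox10* in Ctrl. Both lists, like the 9 catecholamine genes, had their lowest Ctrl value in 1367-1-2. The zG genes, in the cells that carry the active Cre, ran from 1313 to 2029 in Ctrl and from 1795 to 3345 in βCat-GOF, and 4 of 8 rose (*Dab2*, *Agtr1a*, *Agtr1b* and *Vsnl1*, edgeR adjusted p under 0.05). *Cyp11b2*, the aldosterone synthase gene, had 5162 ± 2063 normalized counts in Ctrl and 4544 ± 2824 in βCat-GOF (edgeR adjusted p = 0.820). The cortical steroidogenic genes ran from 67120 to 84060 and from 50930 to 103900, and 1 of 10 rose (*Mrap*). The macrophage genes ran from 113 to 166 and from 94.6 to 145, and 2 of 5 fell (*Adgre1* and *Mrc1*). By edgeR 0 genes of the X-zone, capsule, endothelial, adipocyte and erythrocyte lists were called, with 0, 1, 2, 1 and 0 genes at an unadjusted p under 0.05, and DESeq2 called 1 adipocyte gene. The part of these cell populations in the values of the 9 genes was not tested.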

How the data were processed

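The 12 libraries of poly(A) RNA from whole adrenals were aligned by the authors to mm10 with STAR and counted per gene with featureCounts 1.4.4, and the study used DESeq2 1.6.3. The annotation release and the strand setting are not given in the sources used here. The authors deposited raw counts for 39017 genes. They also deposited a signal table of counts divided by 1 factor per library, which here supplied the gene symbols. Its factors were compared with those computed here and were not used for the levels. No column was left unmapped (0 columns).

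The counts were tested with edgeR 4.0.16 in R 4.3.3, by a two-sided quasi-likelihood test after TMM scaling and filterByExpr. The p-values of all 14953 genes kept by that filter were adjusted together (Benjamini-Hochberg). The standard error is the log2 fold change divided by the square root of F. Normalized counts used size factors computed from the raw counts by the method of DESeq2, and DESeq2 1.42.0 was the version run. Ratios of counts had 0.5 added to both genes before the log2 and were compared with exact permutation tests. Levels per kilobase used the union of GENCODE M21 exons (GRCm38). Scripts were tested on simulated data. Replicates are separate libraries, and p-values measure only the spread between them.

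The 9 genes, the gene lists and the tests were chosen with earlier results of these data known. Named genes are the 9, the called genes of each pathway list and at most 4 of its others with the highest level, and the 10 genes most correlated with the 9. Ratios named by rule are the pathway steps, the pairs of 1 family and those that varied least and most, and those of *Th* to *Dbh*, *Th* to *Chga* and *Slc18a2* to *Phox2a* were added after their values were seen. *Hand1*, *Eya1*, *Fkbp5* and the other genes called under an alternative were named after their values were seen. Some genes of the lists are not reported here.

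Alternatives were DESeq2 without shrinkage, edgeR with DESeq2 size factors, with library totals, without the filter and with at least 10 counts in every mouse, an adjusted p under 0.01, a fold above 1.4 with a base mean above 100, 1 surrogate variable (sva 3.50.0), leaving out mice, and for ratios the median and a pseudocount of 1. Figures used Python 3.11.15 and matplotlib 3.10.9.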

Additional observations from a re-analysis of the deposited data

Results flagged for a closer look

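Within groups of 6 mice, 28 sets of values (the levels of the 9 genes and 5 of their ratios, per group) were searched for a highest or lowest mouse that stood apart from the rest, and 2 were found. Chance finds about 1 in 20. Both are the βCat-GOF mouse 1369-8, with 17110 normalized counts of *Th*, whose gap to the next mouse was 0.628 of the range of the group, and with 12260 of *Dbh*, where the gap was 0.83 of the range. The limit for 6 samples is 0.625. Without this mouse the log2 fold change of *Th* was -0.11, and edgeR had 5 of the 9 genes lower at an unadjusted p under 0.05. The share of all genes lower in that fit is not given here.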

How the results depend on the processing

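Of the recomputed values, 646 did not move beyond their limit (the side of the threshold and direction of a tested value, 1.5 times a count, 1 SD between mice for a median), 38 moved, 6 changed sign and 3 passed the threshold anew. Medians near 0 changed sign within that limit, that of the tetrahydrobiopterin genes to as much as 0.025 without the stem repeats, and that of the genes that feed *Pnmt* to 0.079 with DESeq2 and 0.10 without 1367-1-2. DESeq2 called 3 transcription factors, 2 exocytosis genes and 1 splanchnic receptor gene lower and 1 gene that feeds *Pnmt* higher. With 1 surrogate variable 0 of the 9 genes were lower at an unadjusted p under 0.05, and without mouse 1387-8 there was 1. Without the mice whose label repeats a stem, edgeR called 1 of the 9 genes lower (*Slc18a1*, log2 fold change -0.64, adjusted p = 0.0421), and 6 of the 9 were lower at an unadjusted p under 0.05. That fit called 5 transcription factors, 1 granule gene, 4 exocytosis genes and 2 receptor genes lower. Apart from DESeq2, the shares of all genes under these alternatives are not given here. Their counts are therefore not a result about the genes counted.

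The sign of the *Th* difference, which passed no test, was negative with library totals (-0.039), without 1367-1-2 (-0.10), without 1367-1 (-0.03), without 1367-10 (-0.0064) and without 1369-8 (-0.11). Over all mice left out in turn it ran from -0.11 to 0.16, and that of *Pnmt* from -0.28 to 0.055, the last without 1367-5-2. Leaving out each mouse in turn gave 0 to 1 of the 9 genes called lower, 0 to 7 lower at an unadjusted p under 0.05, 0 to 3 transcription factors, 0 to 5 exocytosis genes, 0 to 2 receptor genes and 0 to 1 granule genes called lower, 1 to 3 granule genes called higher, 0 to 1 gene that feeds *Pnmt* called higher, 0 to 9 ratios with an adjusted p under 0.05, and a *Ddc* to *Th* difference from -0.74 to -0.49.

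No paired analysis was possible because the labels give no replicate number that the groups share. Each of the 9 genes had at least 156 reads in every mouse. Intervals and tests cover the spread between these mice.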
